A study of Homo sapiens with 44 samples.

Results

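Mitochondrial ribosomal protein genes were described in castration-resistant xenografts of VCaP, a line established from a human prostate cancer metastasis with a fusion of TMPRSS2 to ERG. Members were the rows of the count table whose symbol begins with MRPL or MRPS and a digit, without the 2 pseudogene rows. The rule matched 77 of 23368 rows. One of these, MRPL23-AS1, is an antisense RNA and is given apart. The remaining 76 protein genes comprised 47 genes of the large subunit (MRPL symbols) and 29 genes of the small subunit (MRPS symbols).

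Tumors grew in HSD:Athymic Nude–Foxn1nu mice, which lack T cells. All mice, vehicle arm included, were castrated, and dosing began once PSA in serum was back at the level held before the operation. Enzalutamide at 20 mg/kg/day (14 tumors), ARN-509 (apalutamide) at 20 mg/kg/day (15 tumors) or vehicle alone (15 tumors) was given by daily gavage for 4 weeks. A library was made from each tumor, and the number of libraries per arm equals the number of mice treated. Both drugs are antiandrogens with a shared diaryl thiohydantoin core; ARN-509 carries a cyclobutane ring where enzalutamide has a gem-dimethyl group, and a pyridine ring in place of a benzene ring.

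Mitochondria keep ribosomes of their own, which translate the small set of respiratory chain proteins encoded by mitochondrial DNA. The ribosomal RNAs come from mitochondrial DNA, whereas every protein of the large subunit, which joins amino acids, and of the small subunit, which reads the mRNA, is encoded in the nucleus, made in the cytosol and imported. Prostate epithelium and prostate tumors differ in their use of the citric acid cycle and respiration, and androgens are known to act on that metabolism.

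The library enzalutamide 4 held 80142 counts and was left out by the rule for the members, which left 13, 15 and 15 libraries of enzalutamide, ARN-509 and vehicle. Their depth ran between 4723513 and 16903189 counts under enzalutamide, between 3377450 and 30125004 under ARN-509 and between 4187464 and 25849380 under vehicle. The vehicle 8 and vehicle 10 tumors stood apart: their correlation with the mean of the other vehicle tumors, over 4713 genes, was 0.889 and 0.916, against at least 0.956 for every other library kept. The VCaP epithelial markers KLK2, ERG, HOXB13 and KLK3 averaged 4720, 631, 454 and 286 CPM over the 43 libraries, and FOLH1 of the same list 12.2 CPM. The 10 epithelial markers summed to medians of 15940 CPM under enzalutamide, 15660 CPM under ARN-509 and 11000 CPM under vehicle. The 5 endothelial markers summed to medians of 1.75 CPM under enzalutamide, 1.33 CPM under ARN-509 and 4.76 CPM under vehicle, and the lists for fibroblasts, leukocytes, erythrocytes, muscle and fat had medians of at most 18.2 CPM in any arm. Host cells of these tumors are of the mouse and the rows are human genes. The endothelial and other non-epithelial lists therefore do not measure the amount of host cells. The part of the epithelial and endothelial markers in the results was not tested. In bulk tumors, fewer cells of a type and less RNA per cell cannot be told apart.

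Promoter sequences are shown for 5 members on which the results turn: MRPL12 and MRPS15, the members of each subunit with the smallest p for ARN-509 against vehicle; MRPL27 and MRPS18B, those with the smallest p for enzalutamide against ARN-509; and MRPS31, which passed the test as higher under both drugs. Each is the RefSeq window on GRCh38.p14 from 250 bases before to 50 bases after an annotated start, written 5′ to 3′ on the strand of the gene. Capitals mark matches on either strand to CCGGAAG (the core bound by ETS factors such as GABPA), AAGATGG (YY1), GCGCATGCG (NRF1) or AGAACA (one arm of the androgen response element).
MRPL12, chr17:81703117-81703416, plus strand: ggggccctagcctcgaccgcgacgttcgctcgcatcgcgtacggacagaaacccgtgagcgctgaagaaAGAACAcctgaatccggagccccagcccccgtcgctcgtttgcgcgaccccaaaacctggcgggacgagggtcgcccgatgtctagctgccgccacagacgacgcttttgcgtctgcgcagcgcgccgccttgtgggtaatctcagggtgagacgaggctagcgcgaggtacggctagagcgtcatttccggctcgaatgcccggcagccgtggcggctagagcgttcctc
MRPS15, chr1:36464335-36464634, minus strand: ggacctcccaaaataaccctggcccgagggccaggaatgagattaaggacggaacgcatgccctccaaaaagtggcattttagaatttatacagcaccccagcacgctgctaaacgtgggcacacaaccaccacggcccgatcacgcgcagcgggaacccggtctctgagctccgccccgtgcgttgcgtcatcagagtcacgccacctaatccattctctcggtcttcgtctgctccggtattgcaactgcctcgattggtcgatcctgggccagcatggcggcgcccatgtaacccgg
MRPL27, chr17:50373135-50373434, minus strand: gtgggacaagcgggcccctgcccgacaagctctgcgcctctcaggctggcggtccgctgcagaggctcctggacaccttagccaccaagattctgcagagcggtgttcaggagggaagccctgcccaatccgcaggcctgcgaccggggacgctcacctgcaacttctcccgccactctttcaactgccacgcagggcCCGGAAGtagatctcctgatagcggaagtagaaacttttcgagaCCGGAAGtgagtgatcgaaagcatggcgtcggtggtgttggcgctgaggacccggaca
MRPS18B, chr6:30617590-30617889, plus strand: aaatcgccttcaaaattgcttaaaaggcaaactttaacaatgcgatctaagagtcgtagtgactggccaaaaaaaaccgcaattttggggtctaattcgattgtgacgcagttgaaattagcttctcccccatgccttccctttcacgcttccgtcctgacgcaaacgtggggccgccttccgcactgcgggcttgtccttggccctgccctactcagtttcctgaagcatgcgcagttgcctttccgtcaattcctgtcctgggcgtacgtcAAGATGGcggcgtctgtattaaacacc
MRPS31, chr13:40771141-40771440, minus strand: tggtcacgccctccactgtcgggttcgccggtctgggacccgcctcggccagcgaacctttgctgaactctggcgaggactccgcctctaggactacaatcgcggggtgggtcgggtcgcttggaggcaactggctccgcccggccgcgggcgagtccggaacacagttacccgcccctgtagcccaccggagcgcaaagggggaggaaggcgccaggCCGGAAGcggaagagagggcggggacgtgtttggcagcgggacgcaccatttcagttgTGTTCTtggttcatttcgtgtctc

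The MRPL27 window held the ETS letters at 2 places, MRPS31 held them once together with 1 androgen element arm, MRPS18B held 1 YY1 match just past its start, MRPL12 held 1 androgen element arm, and MRPS15 held none of the 4. RefSeq windows were matched for 67 of the 76 members. The ETS core stood in 28 of these 67 windows (41.8%), against 10.6% of all 27305 promoters and 13.9% of the 14060 for genes in the count table, and the YY1 core in 23 (34.3%), against 6.0% and 6.5%. The NRF1 core stood in 3 (4.5%), against 2.1% and 2.8%, and the androgen element arm in 7 (10.4%), against 14.8% and 11.2%. The letters CCGGAAG were in 40.0% of large and 44.4% of small subunit windows. Both backgrounds include genes with too few counts to be tested here (13520 genes were), whereas 75 of the 76 members were tested. No share over tested genes alone was taken. Such matches describe letters in 1 window per gene and not binding.

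Levels of the members differed widely within each subunit. Per transcript length, on a TPM-like scale averaged over the 43 libraries, MRPL12 was the highest large subunit gene at 294.9, followed by MRPL11 at 228.7 and MRPL49 at 227.4. MRPL12 forms the flexible stalk of the large subunit to which translation factors bind, and has been reported to bind the mitochondrial RNA polymerase. By arm, the per-length level of MRPL12 was 306 ± 33.6 under enzalutamide, 259 ± 26.2 under ARN-509 and 322 ± 64.8 under vehicle (SD, n = 13, 15 and 15). The neighbours MRPL11 and MRPL49 did not differ from each other beyond their spread in any arm (235 ± 22.7 and 236 ± 20.4 under enzalutamide). The lowest large subunit genes on this scale were MRPL42 at 11.3 and MRPL55 at 10.2. The value of MRPL42 rests on an annotated longest transcript of 15582 bases: its CPM averaged 60.5 under enzalutamide, 65.5 under ARN-509 and 62.5 under vehicle, above the large subunit median of 42.5 CPM.

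In the small subunit MRPS26 was highest per length at 249.2, then MRPS35 at 195.9 and MRPS2 at 176.7, and MRPS23 at 15.8 and MRPS18C at 14.7 were the lowest of those tested, MRPS23 with a transcript of 5621 bases. MRPS24 had 1.25 and was the only member to miss the filter on low counts, with at most 1.53 CPM in any tumor. Its exons overlap those of the coding gene URGCP-MRPS24 on the same strand, so its count is uncertain and may not give its level. So 75 members were tested, 47 large and 28 small. The summed per-length level of large over small subunit genes was 2.02 ± 0.0633 under enzalutamide, 1.98 ± 0.0693 under ARN-509 and 2.05 ± 0.0939 under vehicle (SD), so the arms overlapped. In the same order, the large subunit sums had medians of 5277, 4908 and 5051, and the small subunit sums 2572, 2457 and 2492. Together the members took a median of 0.442%, 0.392% and 0.417% of all counts in those arms.

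**Figure D1:**
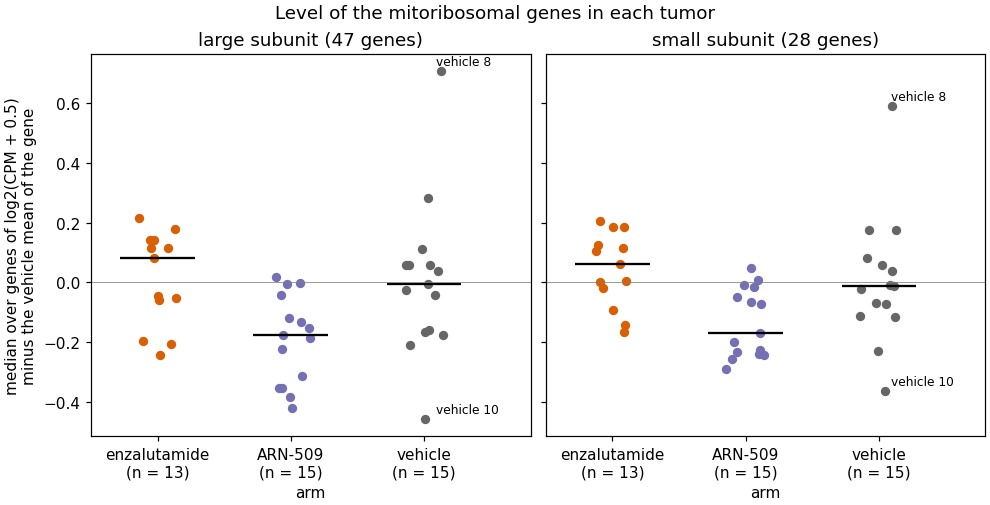
Each point is 1 tumor; the vertical axis is the median, over the large (left) or small (right) subunit genes, of log2(CPM + 0.5) minus the mean of that gene in vehicle tumors, and the line is the median of the arm. ARN-509 tumors lie low with medians of −0.17 for both subunits, inside the vehicle range set by vehicle 8 at the top and vehicle 10 at the bottom.

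Tumors of 1 arm differed in the level of the family as a whole. The median deviation of the 75 members from their vehicle means ran between −0.22 and 0.21 under enzalutamide (median 0.08), between −0.34 and 0.01 under ARN-509 (median −0.17) and between −0.44 and 0.68 under vehicle (median −0.01), all as log2 differences. Of 15 ARN-509 tumors, 13 lay under the vehicle median. The vehicle extremes were the 2 libraries named above: vehicle 8 gave the highest CPM of all 43 tumors for 56 of the 75 members, and vehicle 10 the lowest vehicle value for 50. The coefficient of variation between tumors had a median over members of 14.0% under enzalutamide, 13.3% under ARN-509 and 20.6% under vehicle.

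Under enzalutamide against vehicle, 2 of the 75 members rose (2.67%) and 0 fell, against 5.1% higher and 5.67% lower among all 13520 genes tested with edgeR's quasi-likelihood test at an adjusted p under 0.05, and the median log2 fold change of the members was 0.02. With limma 5 rose and 1 fell (6.67% and 1.33%, against 9.73% and 9.13% of all genes). With trends in GC content and length removed 4 rose and 1 fell (5.33% and 1.33%, against 7.36% and 7.88%). The intervals of the members that missed the test, which does not show an absence of change, are drawn in the plot of fold changes.

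MRPS31, a protein of the small subunit's head found in mitochondria but not in bacteria, rose under both drugs. Its CPM was 17.2, 20.6 and 21.4 under enzalutamide (lowest, median and highest tumor), 13.6, 18.6 and 22.2 under ARN-509, and 10.3, 15.9 and 21.7 under vehicle. All 13 enzalutamide and 14 of 15 ARN-509 tumors lay above the vehicle median, but the ranges overlapped. The log2 fold change was 0.29 ± 0.08 under enzalutamide (SE; edgeR adjusted p = 0.00762) and 0.21 ± 0.07 under ARN-509 (edgeR adjusted p = 0.0288). The ARN-509 call was lost without vehicle 12 or without ARN-509 9, and 4 pseudogenes bear its name, so its counts are uncertain.

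MRPL30, a large subunit protein with a bacterial counterpart, was the other that rose under enzalutamide. It had 86.7, 100.7 and 117.5 CPM under enzalutamide and 64.6, 89.6 and 109.2 CPM under vehicle (lowest, median, highest). Of 13 enzalutamide tumors 12 lay above the vehicle median, in overlapping ranges, with a log2 fold change of 0.18 ± 0.05 (SE; edgeR adjusted p = 0.0198). Exons of MRPL30 overlap those of 2 coding genes on the same strand, and 1 pseudogene bears its name, so its count is uncertain. The nearest members that missed the test were MRPL50 at −0.18 ± 0.07 (edgeR adjusted p = 0.079) and MRPL24 at 0.25 ± 0.10 (0.102) in the large subunit, and MRPS10 at 0.14 ± 0.06 (0.137) and MRPS21 at 0.18 ± 0.09 (0.216) in the small one. MRPL24, which sits near the exit of the peptide tunnel, lay above the vehicle median in 13 of 13 enzalutamide tumors.

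**Figure D2:**
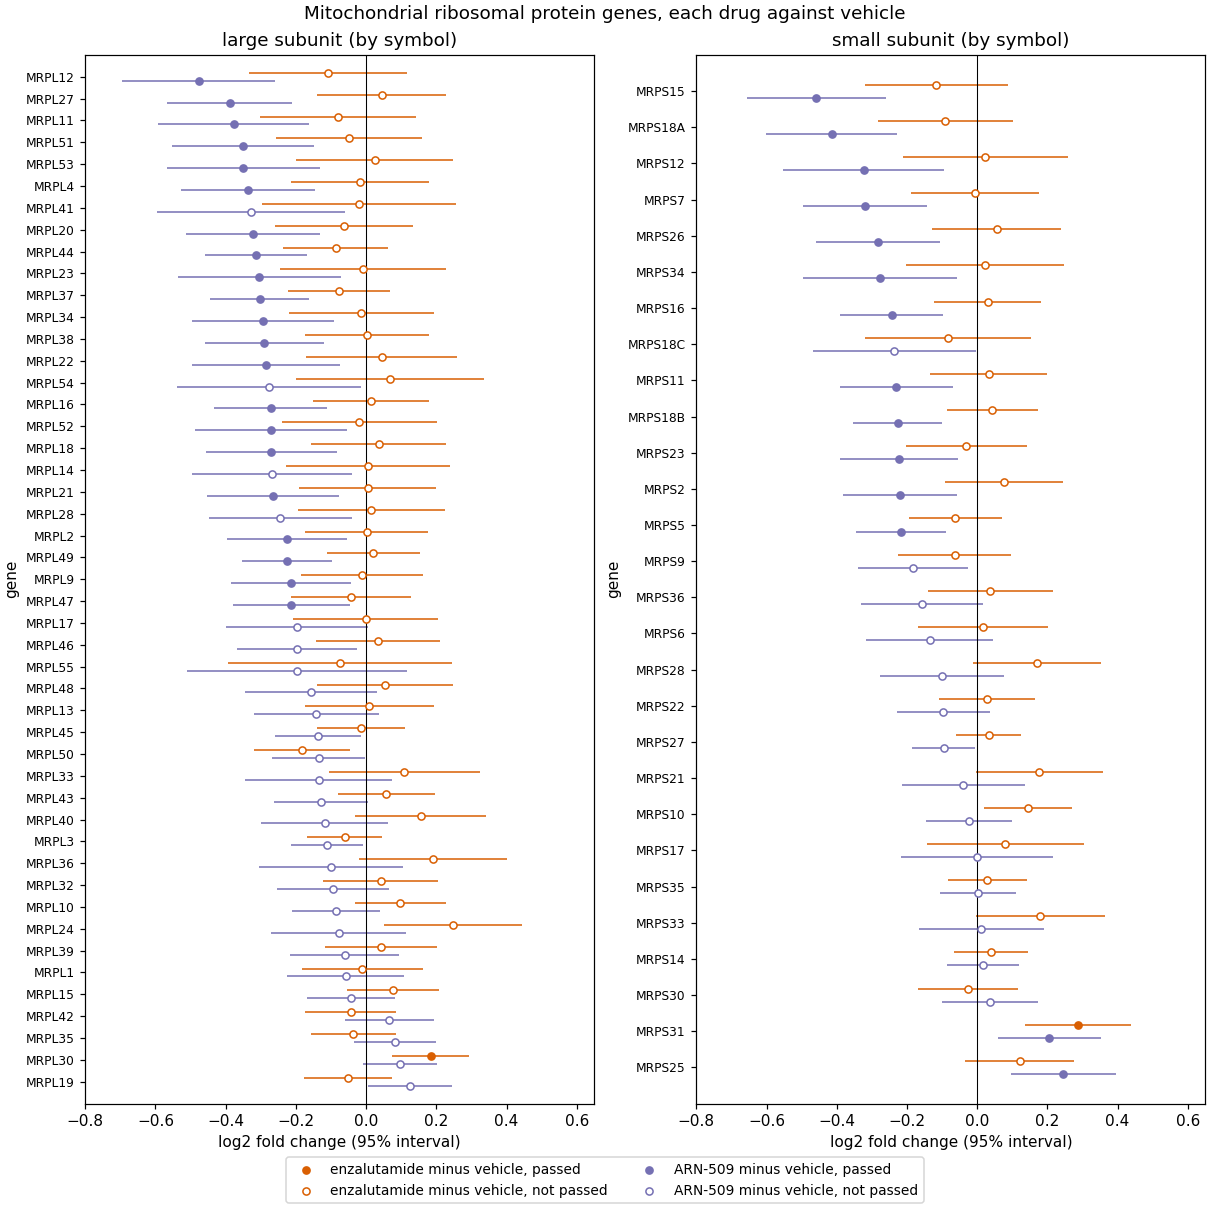
Log2 fold changes against vehicle with 95% intervals for the 47 large (left) and 28 small (right) subunit genes tested, orange for enzalutamide and violet for ARN-509; filled points passed edgeR's adjusted p under 0.05. Violet points run from −0.48 (MRPL12) to 0.25 (MRPS25) and 33 filled ones lie left of 0, while 2 orange points are filled.

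Under ARN-509 against vehicle, 33 of the 75 members fell (44%) and 2 rose (2.67%). Among all genes tested 16.1% fell and 14.7% rose, and the median log2 fold change was −0.21 for the members and 0.00 for all genes. The fall took in both subunits: 21 of 47 large subunit genes (44.7%, with 0 that rose) and 12 of 28 small subunit genes (42.9%, with 2 that rose). Their median log2 fold changes of −0.21 and −0.17 differed by −0.04. The per-length sums had medians of 4908 under ARN-509 and 5051 under vehicle for the large subunit. For the small subunit they were 2457 and 2492, and both pairs had overlapping ranges. The size of the fall depended on the scale, and the per-length levels were not tested. Taken within each tumor, the large minus small difference in median deviation ran between −0.20 and 0.04 under ARN-509 (mean −0.06 ± 0.08) and between −0.10 and 0.12 under vehicle (mean −0.00 ± 0.07; SD, n = 15 each), in overlapping ranges, and was not tested. Placed by structure, with MRPS30 and MRPS18A in the large subunit and MRPS36 in neither, the counts were 22 of 49 and 11 of 25. With library totals in place of TMM scaling, 19 members fell and 4 rose, beside 10.8% lower and 20.1% higher among all genes. The 35 calls in either direction became 21 without vehicle 8 and 23 without vehicle 7. Calls among all genes were 3261 of 13566 and 3355 of 13495 in those fits, against 4166 of 13520.

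MRPL12 had the largest fall. Its CPM was 70.1, 89.5 and 109.3 under ARN-509 and 78.3, 117.5 and 262.5 under vehicle (lowest, median, highest). All 15 ARN-509 tumors lay under the vehicle median, and the highest vehicle value, in vehicle 8, was followed by 165.1. The log2 fold change was −0.48 ± 0.11 (SE; edgeR adjusted p = 0.000923). Exons of MRPL12 overlap those of the coding gene AC139530.2 on the same strand, so its count is uncertain.

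MRPS15, whose bacterial counterpart binds the small ribosomal RNA early in assembly, had the smallest p of the family. It had 33.9, 40.8 and 52.7 CPM under ARN-509 and 35.8, 54.2 and 100.0 CPM under vehicle. Again all 15 ARN-509 tumors lay under the vehicle median, and the log2 fold change was −0.46 ± 0.10 (SE; edgeR adjusted p = 0.000513).

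MRPL27, whose bacterial counterpart lies beside the peptidyl transferase centre, had 24.4, 27.9 and 36.7 CPM under ARN-509 and 26.1, 36.1 and 64.8 CPM under vehicle. In 14 of 15 ARN-509 tumors it lay under the vehicle median, and its log2 fold change was −0.39 ± 0.09 (SE; edgeR adjusted p = 0.00101). MRPS18A is one of the 3 human homologues of bacterial S18 and, despite its symbol, is placed in the large subunit by structures. It had 29.1, 32.5 and 42.6 CPM under ARN-509 and 30.2, 45.3 and 72.9 CPM under vehicle, a log2 fold change of −0.41 ± 0.09 (SE; edgeR adjusted p = 0.000802).

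The other leading genes fell by less. MRPL44, which has a ribonuclease III fold and is mutated in an inherited cardiomyopathy, fell by 0.31 on the log2 scale, MRPL37 by 0.30 and MRPL4, a protein of the exit tunnel, by 0.34 (edgeR adjusted p = 0.00112, 0.00116 and 0.00666). In the small subunit MRPS7, which lies in the head, fell by 0.32, MRPS18B by 0.23 and MRPS5, a counterpart of a bacterial protein that bears on decoding accuracy, by 0.22 (edgeR adjusted p = 0.00549, 0.006 and 0.00924). MRPL44 and MRPL37 lay under the vehicle median in all 15 ARN-509 tumors, and MRPS7, MRPS18B and MRPS5 in 13. These 10 calls held when any 1 library was left out. MRPL23, MRPS2 and MRPS23, at −0.30, −0.22 and −0.22 with adjusted p of 0.0394, 0.0346 and 0.0387, lost theirs without vehicle 8, among other libraries.

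Single members went the other way or stayed near 0. MRPS25, a small subunit protein mutated in a mitochondrial encephalomyopathy, had 148.9, 189.8 and 233.4 CPM under ARN-509 and 116.4, 164.8 and 234.9 CPM under vehicle. It rose by 0.25 ± 0.07 on the log2 scale (SE; edgeR adjusted p = 0.011), above the vehicle median in 13 of 15 tumors, with ranges that overlapped. Its exons overlap those of NR2C2 on the other strand, and the library kit does not mark strand. MRPS30, placed in the large subunit by structures, had a log2 fold change of 0.04 (95% interval −0.10 to 0.17), and MRPS35 one of 0.00 (−0.10 to 0.11). MRPS36, since described as a subunit of the 2-oxoglutarate dehydrogenase complex and not of the ribosome, had one of −0.16 (−0.33 to 0.02). The nearest misses were MRPL41 at −0.33 and MRPL28 at −0.24 (edgeR adjusted p = 0.0551 and 0.0612), and MRPS9 at −0.18 and MRPS27 at −0.10 (0.0668 and 0.0926).

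**Figure D3:**
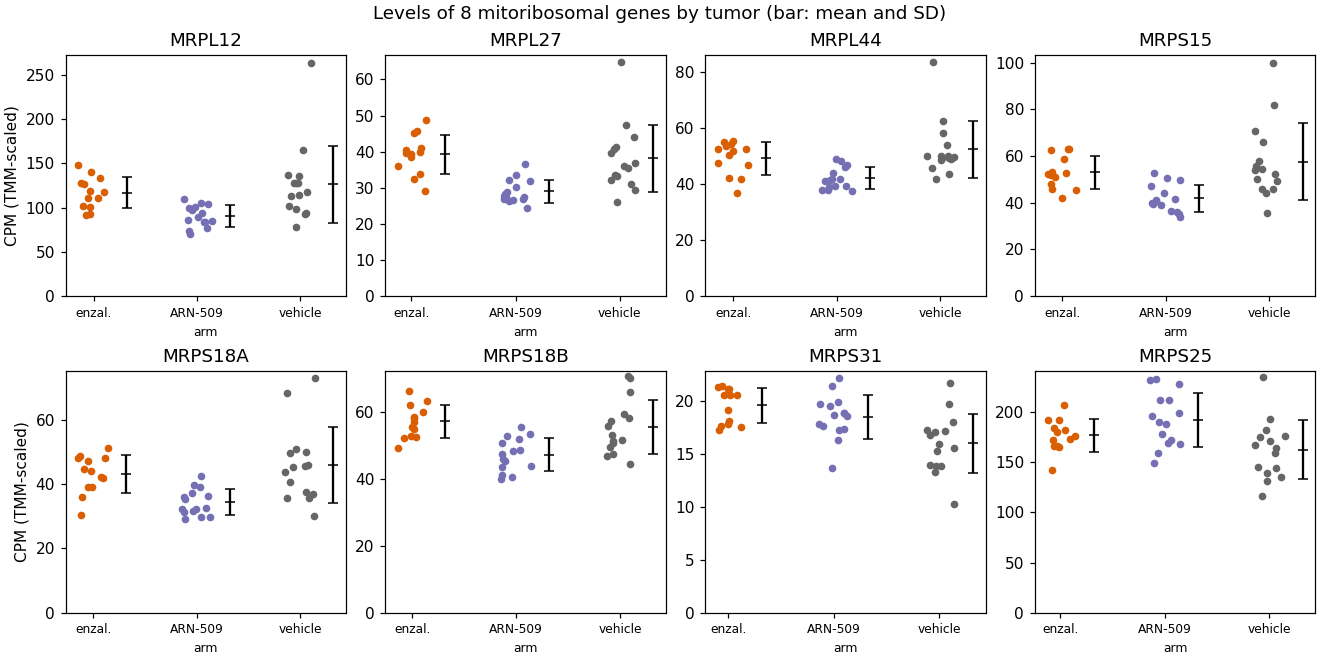
TMM-scaled CPM of 8 members in each tumor, with the mean and SD of each arm beside the points (enzalutamide n = 13, ARN-509 n = 15, vehicle n = 15). MRPL12, MRPL27, MRPL44, MRPS15, MRPS18A and MRPS18B are lowest on average under ARN-509, MRPS31 and MRPS25 lowest under vehicle, and the top vehicle point of MRPL12, at 262.5 CPM, is vehicle 8.

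Enzalutamide and ARN-509 were compared directly, at the same dose, as 1 pair of compounds. Against ARN-509, 37 of 75 members were higher under enzalutamide (49.3%) and 1 was lower (1.33%), beside 12.2% higher and 14.6% lower among all genes. The median log2 difference was 0.23 for the members and 0.01 for all genes. In the large subunit 24 of 47 were higher and 1 lower with a median of 0.24, and in the small subunit 13 of 28 were higher with a median of 0.18. Both ARN-509 comparisons use the same ARN-509 tumors, so the 27 members called lower against vehicle and higher under enzalutamide are a description. In 28 members none of the 3 comparisons passed. The 38 calls between the drugs became 22 without enzalutamide 11, 24 without enzalutamide 7 or ARN-509 6, and 25 without enzalutamide 9, ARN-509 10 or ARN-509 14. Calls among all genes, 3623 with the 43 libraries, then lay between 2680 (enzalutamide 9 left out) and 3193 (ARN-509 10 left out).

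MRPL27 differed most: 29.01, 39.7 and 48.7 CPM under enzalutamide and 24.4, 27.9 and 36.7 CPM under ARN-509 (lowest, median, highest). All 13 enzalutamide tumors lay above the ARN-509 median, and the log2 difference was 0.43 ± 0.09 (SE; edgeR adjusted p = 0.00311). MRPS18B, a homologue of bacterial S18 that is placed in the small subunit, had 49.4, 57.2 and 66.4 CPM under enzalutamide and 40.0, 47.5 and 55.5 CPM under ARN-509. Its log2 difference was 0.27 ± 0.06 (SE; edgeR adjusted p = 0.0049), again with 13 of 13 enzalutamide tumors above the ARN-509 median and with ranges that overlapped.

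MRPL53 and MRPL38, large subunit proteins absent from bacteria, were higher under enzalutamide by 0.37 and 0.29 (log2; edgeR adjusted p = 0.0141 and 0.0142), MRPL16 by 0.29 (0.0117) and MRPL49 by 0.24 (0.00831). MRPS26 was higher by 0.34 (edgeR adjusted p = 0.00834), MRPS7 by 0.31 (0.0118), MRPS2 by 0.30 (0.0105) and MRPS16, mutated in a respiratory chain disorder of infants, by 0.27 (0.00949). With trends in GC content and length removed, MRPL38 stood at 0.03, MRPS26 at 0.03 and MRPS2 at 0.06, all outside the test (edgeR adjusted p = 0.74, 0.693 and 0.415). Exons of MRPL49 overlap those of FAU and SYVN1 on the other strand, so its count is uncertain. MRPL19, of the subunit interface, was the member that was lower: 42.7, 52.8 and 61.3 CPM under enzalutamide and 50.3, 61.5 and 73.7 CPM under ARN-509, a log2 difference of −0.18 ± 0.06 (SE; edgeR adjusted p = 0.0317). It lost its call without any 1 of 6 libraries, among them enzalutamide 1 and ARN-509 6. The members nearest to the threshold outside it were MRPL23 and MRPL28 (edgeR adjusted p = 0.0556 and 0.0569) and MRPS21 and MRPS5 (0.0632 and 0.0724). For MRPS31, which rose under both drugs, the drugs differed by 0.08 with a 95% interval from −0.07 to 0.23, and for MRPS35 by 0.03 (−0.09 to 0.14).

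**Figure D4:**
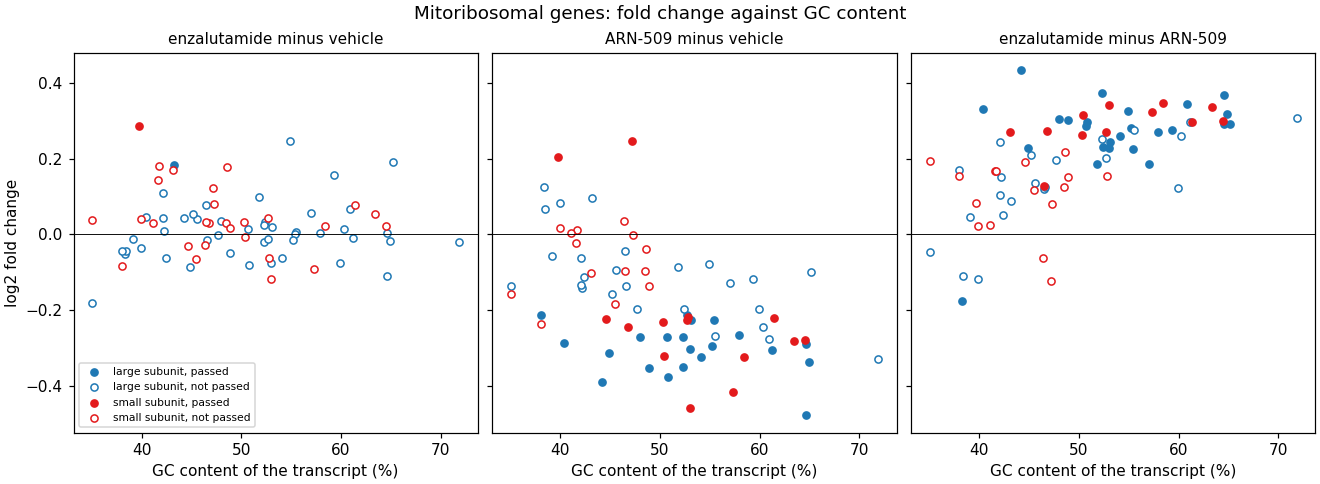
Log2 fold change of the 75 members (vertical) against the GC percentage of the transcript (horizontal) in the 3 comparisons, blue for large and red for small subunit, filled where the test passed. In ARN-509 minus vehicle the points slope down with GC content (rho = −0.56) and in enzalutamide minus ARN-509 they slope up (rho = 0.65).

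Fold changes moved with base composition and length. Over 12025 tested genes with an annotated transcript, the Spearman rho of the log2 fold change with GC content was 0.21 for enzalutamide against vehicle, −0.42 for ARN-509 against vehicle and 0.62 for enzalutamide against ARN-509; with length it was −0.20, 0.34 and −0.54. Over the 75 members rho with GC content was −0.04, −0.56 and 0.65, and with length −0.025, 0.34 and −0.459. The members had the same median GC content as all tested genes (48.9%) but shorter transcripts, with a median of 1532 bases against 3425. The subunits differed: medians were 51.8% GC and 1387 bases for large subunit genes, and 47.3% and 1641.5 bases for small subunit genes. The genes and the libraries are shared between these correlations.

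With each library's trend in GC content and length removed, 25 members passed as lower and 1, MRPS25, as higher under ARN-509 (33.3% lower, against 15.2% of all genes), with a median of −0.11. Of the 35 calls made without this removal 20 were kept. MRPL27, MRPL44 and MRPS15 then stood at −0.42, −0.32 and −0.32, and MRPL12 at −0.20, while MRPL4, MRPS5 and MRPS31 missed the test (edgeR adjusted p = 0.0803, 0.0506 and 0.0851). MRPL38, MRPS26 and MRPS2 were also among the calls lost, and MRPS36, MRPS9 and MRPS27 among those gained. Between the drugs 14 members passed, all higher under enzalutamide (18.7%, against 3.44% of all genes), with a median of 0.11. MRPL27 then had a difference of 0.48, MRPL44 0.23, MRPS7 0.24 and MRPL16 0.16, whereas MRPS18B, MRPL49, MRPS15 and MRPL12 missed the test (edgeR adjusted p = 0.0512, 0.0553, 0.0952 and 0.655), as did MRPL38, MRPS26 and MRPS2 with the values given above. Against vehicle, enzalutamide then had 4 members higher and 1 lower, the lower one being MRPL12 at −0.16 (edgeR adjusted p = 0.0132). Among all genes 7.36% were then higher and 7.88% lower. The part of GC content and length in these results was not tested further.

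**Figure D5:**
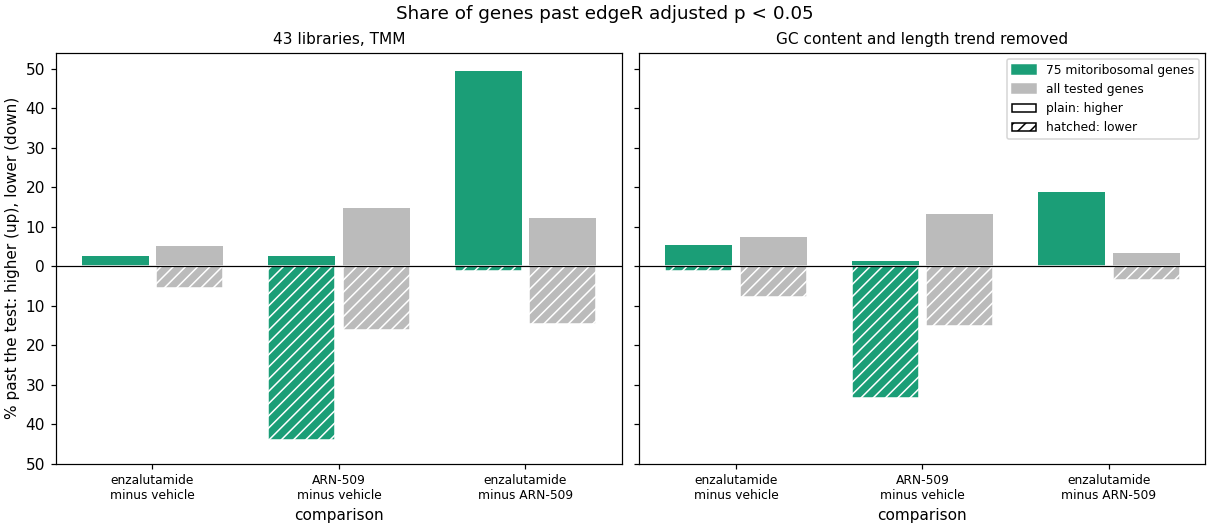
Percentage of genes past edgeR's adjusted p under 0.05, plain bars upward for higher and hatched bars downward for lower, for the 75 members (green) and all tested genes (grey), with TMM scaling (left) and with the GC and length trends removed (right). For ARN-509 minus vehicle the lower share of members was 44% on the left and 33.3% on the right, and for enzalutamide minus ARN-509 the higher share was 49.3% and 18.7%.

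Proteins of the mitoribosome under other symbols were 7 in number: 0 of 7 passed under enzalutamide against vehicle, 4 fell under ARN-509 (57.1%, beside 16.1% of all genes) and 5 were higher under enzalutamide than under ARN-509 (71.4%, beside 12.2%). GADD45GIP1 fell by 0.40 and ICT1, a peptidyl-tRNA hydrolase built into the large subunit, by 0.23 (log2; edgeR adjusted p = 0.0129 and 0.0213). The small subunit proteins AURKAIP1 and CHCHD1 fell by 0.36 and 0.28 (edgeR adjusted p = 0.0184 and 0.0355). MRP63 of the large subunit was called between the drugs alone, 0.25 higher under enzalutamide (edgeR adjusted p = 0.0272).

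Of 24 tested factors that assemble the ribosome or modify its RNA, 5 fell (20.8%) and 1 rose (4.17%) under ARN-509, beside 16.1% and 14.7% of all genes. Between the drugs 6 were higher under enzalutamide (25%), beside 12.2%. The assembly factor MPV17L2 fell by 0.55 ± 0.15, WBSCR16 by 0.33 ± 0.07 and the helicase DHX30 by 0.18 ± 0.05 (log2, SE; edgeR adjusted p = 0.00488, 0.000421 and 0.00861). The GTPase NOA1 was the one factor called under enzalutamide against vehicle, 0.18 higher (edgeR adjusted p = 0.018). Of 15 translation factors 4 fell (26.7%) and 1 rose (6.67%) under ARN-509, beside 16.1% and 14.7% of all genes; the median log2 fold change of the list was −0.01, with 7 members above 0 and 8 under it. Among those that fell were the elongation factor TUFM at −0.28 and TACO1, the activator of COX1 translation, at −0.37 (edgeR adjusted p = 0.00058 and 0.000357). Between the drugs 4 of the 15 translation factors were higher under enzalutamide (26.7%) and 2 lower (13.3%), beside 12.2% and 14.6% of all genes.

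Steps of mitochondrial gene expression outside the ribosome were read from a pair of further lists. Of 17 mitochondrial tRNA synthetases 2 fell under ARN-509 (11.8%), LARS2 by 0.24 and AARS2 by 0.16 (edgeR adjusted p = 0.00115 and 0.0196), and IARS2 was 0.23 lower under enzalutamide against vehicle (edgeR adjusted p = 0.02). Of 18 genes of mitochondrial DNA upkeep, transcription and RNA processing 2 fell under ARN-509 (11.1%), the RNase P subunit HSD17B10 by 0.42 and the tRNA-end nuclease ELAC2 by 0.15 (edgeR adjusted p = 0.00598 and 0.00734). Both shares lay under the 16.1% of all genes. Between the drugs 4 of these 18 genes were higher under enzalutamide (22.2%, beside 12.2% of all genes). The 1 that was lower (5.56%, beside 14.6%) was TFAM, which packages mitochondrial DNA, by 0.26 (edgeR adjusted p = 0.0175). Of the 17 synthetases 2 were higher under enzalutamide than under ARN-509 (11.8%) and 0 lower. The 13 proteins encoded by mitochondrial DNA had 0 rows in the table and were not analysed here.

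Among 10 tested regulators of mitochondrial biogenesis, 1 fell and 0 rose under ARN-509 (10% lower, beside 16.1% of all genes). Under enzalutamide against vehicle 1 was lower (10%, beside 5.67%). Between the drugs 2 were higher and 3 lower under enzalutamide (20% and 30%, beside 12.2% and 14.6%). The orphan receptor ESRRA fell by 0.39 ± 0.08 under ARN-509 and was 0.32 ± 0.09 higher under enzalutamide than under ARN-509 (log2, SE; edgeR adjusted p = 0.000498 and 0.00805). GABPA, the ETS-type subunit of the factor that binds CCGGAAG, was 0.55 ± 0.13 lower under enzalutamide than under ARN-509 (edgeR adjusted p = 0.00467), and its partner GABPB1 was 0.22 lower under enzalutamide than under vehicle (edgeR adjusted p = 0.0367). YY1 was 0.15 lower under enzalutamide than under ARN-509 (edgeR adjusted p = 0.0383). Values of this list and of the lists before it come from the fit that keeps the trends in GC content and length. With both trends removed, calls among all genes between the drugs were 833 of 12025, against 3623 of 13520. The part of these trends in the values of the list genes was not tested. Of the matched promoter windows, CCGGAAG was in 14 of 30 for members that fell under ARN-509 and in 13 of 34 for members that did not pass, and the YY1 letters in 13 and 9.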

How the data were processed

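RNA of 44 tumors was sequenced from TruSeq RNA v2 libraries, a kit that does not mark strand, per the labels' protocols. The authors deposited raw counts, 1 column per tumor and 1 row per gene symbol. The submitters' processing notes name the build hg19, HTSeq 0.6.1, TopHat2 2.1.0, Picard 1.77 and bcl2fastq 1.8.4. Parameters, annotation and the handling of mouse reads were not given in these sources, so mouse reads may stand in counts of similar human genes. Columns were matched to tumors by the label in each sample record (0 unmatched). No pair of libraries of an arm agreed within sampling noise (lowest chi-square per degree of freedom 4.61 under enzalutamide, 3.92 under ARN-509 and 3.42 under vehicle).

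The 43 libraries were fitted in edgeR 4.0.16 (R 4.3.3) with filterByExpr by arm, TMM, a robust quasi-likelihood model with arm as the only term, and Benjamini-Hochberg adjustment over 13520 genes. The SE is the absolute log2 fold change over the square root of F. CPM are TMM-scaled; per-length levels are TPM over rows with a length. Length and GC content are those of the longest coding transcript in GENCODE (GRCh38), matched by symbol for 88.9% of tested genes. Promoters are RefSeq's, the most upstream start listed. Pseudogenes bear the names of 33 members, and exons of another coding gene overlap those of 34, so their reads could be split or shared. Members with such an overlap include MRPL37, MRPL53, MRPS5, MRPS7 and MRPS16, for which it is not repeated above.

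The members and all gene lists were chosen with earlier results of these data known. Genes named are, per comparison and subunit, up to 5 past the test in each direction and 2 outside it by smallest p, the 3 highest and 2 lowest per length, MRPL12, MRPS30, MRPS18A, MRPS36, the untested member, and up to 4 of each list by smallest p; list genes beyond these were named after their values were seen. Nothing in the labels ties equal tumor numbers across arms. Alternatives were other scalings (DESeq2 size factors, library totals), other filters, DESeq2 1.42.0, limma 3.58.1 voom with quality weights, fits of 2 arms, all 44 libraries, each library left out, vehicle 8 and 10 left out, a replicate block, placement by structure, and removal of GC and length trends.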

Additional observations from a re-analysis of the deposited data

Results flagged for a closer look

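The antisense RNA MRPL23-AS1, a row that matched the symbol rule but codes for no ribosomal protein, was higher under ARN-509 than under vehicle by 0.5627 ± 0.17 on the log2 scale (SE; edgeR adjusted p = 0.0115). It had 1031 counts over all libraries. Its log2 fold change under enzalutamide against vehicle was 0.29 ± 0.18 (edgeR adjusted p = 0.339). It drew attention because it lies outside the protein genes counted in the report while its partner on the other strand, MRPL23, fell by 0.30 under ARN-509. Reads of the pair cannot be told apart by strand in these libraries.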

How the results depend on the processing

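The direction of the median log2 fold change of the members in both comparisons with ARN-509 was kept under every alternative run, with −0.24 to −0.16 for ARN-509 against vehicle and 0.21 to 0.25 between the drugs when 1 library was left out. For enzalutamide against vehicle the median lay between −0.02 and 0.07 on leaving out 1 library, on both sides of 0, and the count of members called was 1 with all 44 libraries, 1 with only the 2 arms compared (MRPL30 missed the test in both), 6 with limma and 5 with GC and length trends removed, against 2. Calls among all genes in those settings were 1254 of 13517, 1095 of 13193, 2551 of 13520 and 1833 of 12025, against 1455 of 13520. For ARN-509 against vehicle 35 members were called, and 23 with library totals. Among all 13520 genes 4166 were called, and 4179 with library totals. Between the drugs 38 were called, 14 with GC and length trends removed, 22 with the GC trend alone removed and 15 with the length trend alone removed. The last pair of settings was chosen after the data were seen. Calls among all genes between the drugs fell as well, from 3623 of 13520 to 833, 1425 and 2478 of 12025 in those settings. The large minus small subunit difference between the drugs was 0.06, −0.028 with both trends removed and −0.02 (−0.0156) with the GC trend alone removed, and MRPL19 reversed to 0.01 (0.0139) in that setting. The cause was not tested. Leaving out 1 library gave 2 to 3, 21 to 43 and 22 to 49 calls in the 3 comparisons, with 43 without vehicle 10 and 49 without vehicle 8. Beside these stood 5045 of 13494 genes for ARN-509 against vehicle without vehicle 10. Between the drugs without vehicle 8 they stood beside 4269 of 13566. Without vehicle 8 and 10 together the member counts were 3, 30 and 50, beside 1666, 4077 and 4445 of all 13472 genes. With a replicate block the member counts were 2, 33 and 34, beside 1197, 4084 and 3290 of all 13520 genes. The numbers did not pair the tumors: same-numbered tumors correlated above 0.1 in 3 of 13, 6 of 15 and 6 of 13 pairs, and best with their own number in 2, 3 and 1. MRPL55, the tested member with the fewest counts, had the widest interval under enzalutamide against vehicle, −0.39 to 0.24.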
